A study of Saccharomyces cerevisiae with 15 samples.

Results

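Transcript levels were compared between cultures of a PMI40 deletion strain of Saccharomyces cerevisiae that started with 5 g/L mannose and cultures that started with 1 g/L mannose. The comparison was made across all genes of the array, on the 3 arrays titled 5 g/L and the 3 titled 1 g/L, 6 of the 15 arrays in the series, with the 0.75 g/L arrays left out of it. The strain was made from CEN.PK113-7A, and the deletion was present in every group, so no array measured cells with an intact PMI40. All cultures were aerated batches in mineral medium with 15 g/L glucose beside the mannose, and RNA was taken 6 h after inoculation. Cells grown at 1.5 and 3 g/L mannose, again 3 arrays each, enter no group mean of this comparison. They share with it, as do the 0.75 g/L arrays, the estimate of the spread behind each p-value, and they show how the same genes stood in between. The labels give neither the mating type nor the ploidy of the strain. Nothing in them tells separate cultures from repeat hybridisations of 1 RNA, and in the array records the 3 arrays of a concentration carry the same sample code, so a p-value here is set against a spread that may be technical.

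PMI40 encodes phosphomannose isomerase, the enzyme that joins fructose 6-phosphate of glycolysis to mannose 6-phosphate. From mannose 6-phosphate the phosphomannomutase Sec53 and the pyrophosphorylase Psa1 make GDP-mannose, the mannose donor of protein N-glycosylation, O-mannosylation, GPI anchor synthesis and the mannoproteins of the cell wall. Without the isomerase, cells draw this supply from mannose in the medium, which enters through the hexose transporters and is phosphorylated by the hexokinases that also act on glucose.

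The values are probe set signals in the linear intensity units of the array, which the authors had scaled so that the 2% trimmed mean of each array was near 100. Correlations between arrays were taken on the log2 signals of the probe sets tested. They were 0.972 to 0.981 among the 5 g/L arrays, 0.963 to 0.964 among the 1 g/L arrays and 0.924 to 0.934 between these 2 concentrations. The share of probe sets above background was between 60.9% and 63.5% for the 5 g/L arrays and between 61.3% and 62.5% for the 1 g/L arrays. Background was a signal of 13.5, the 95th percentile of 13 control probe sets for mouse genes and antisense strands. The ratio of the 3' to the 5' probe set of SPT15, a measure of RNA and labelling quality, was 4.44, 6.10 and 6.90 at 5 g/L, against 4.16, 2.81 and 4.03 at 1 g/L. That ratio did not overlap between the groups, while the same ratio of ACT1 overlapped, with values of 1.49 to 2.14 on the 5 g/L arrays and of 1.48 to 2.06 on the 1 g/L arrays. The ratio of SRB4 overlapped as well, with 2.5, 2.92 and 4.31 at 5 g/L, against 3.95, 4.31 and 2.01 at 1 g/L. The part of any of these ratios in the results was not tested.

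The array records also separate the groups by fluidics station and time. They name no session, and the earlier and later sessions given here were inferred from the recorded hybridisation time. Replicates 1 and 2 at 5 g/L were washed on fluidics station 2 in an earlier session, and the wash of replicate 2 was recorded as not completed. Replicate 3 at 5 g/L was washed on station 1 in a later session, and the 3 arrays at 1 g/L were washed on station 2 in that later session. The groups therefore met within the later session and on station 2, but no fluidics run held both. Values within the later session set 5 g/L replicate 3 against the 1 g/L arrays, and values on station 2 set 5 g/L replicates 1 and 2 against the same 1 g/L arrays. All 1662 probe sets that passed the test below kept their direction in both, which is no sign of stability, since they were chosen on these arrays and for 1634 of them the groups did not overlap. With the session as a block in the fit, 732 passed instead of 1662. That block rests on 5 g/L replicate 3 alone against the 1 g/L arrays, so its log2 changes repeat those within the later session. PMI40, for example, had a log2 change of 0.65 with a standard error of 0.28 under the block, against 0.64 and 0.19 without it. A call lost under the block thus need not mean a smaller change, and the part of the session was not tested. Run and concentration cannot be told apart where a run holds a single concentration, as it does at 1 g/L.

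Cultures started at 5 g/L differed from those at 1 g/L in genes of carbon metabolism, amino acid synthesis, the cell wall, the ribosome, the cell cycle and mating. Of 6957 probe sets tested with limma, 1662 passed at an adjusted p under 0.05 (23.9%), with 937 higher at 5 g/L (13.5%) and 725 lower (10.4%). The large changes were mostly rises: 486 probe sets were more than 2-fold higher and 132 more than 2-fold lower, and 100 were more than 4-fold higher and 4 more than 4-fold lower. The log2 changes ran from -2.76 to 6.15 with a median of -0.02 over all probe sets tested, and their median standard error was 0.22. At 1 g/L, 102 of the probe sets that rose lay at or below background on every array, and 43 of those that fell did so at 5 g/L. Among the 5208 genes with a probe set of their own, 611 rose (11.7%) and 591 fell (11.3%), 289 and 94 of them by more than 2-fold. The arrays of the 2 concentrations did not overlap for 39.3% of all probe sets tested, and for 1634 of the 1662 that passed. For each chromosome of the nucleus the median log2 change of its genes lay between -0.10 and 0.11.

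**Figure D1:**
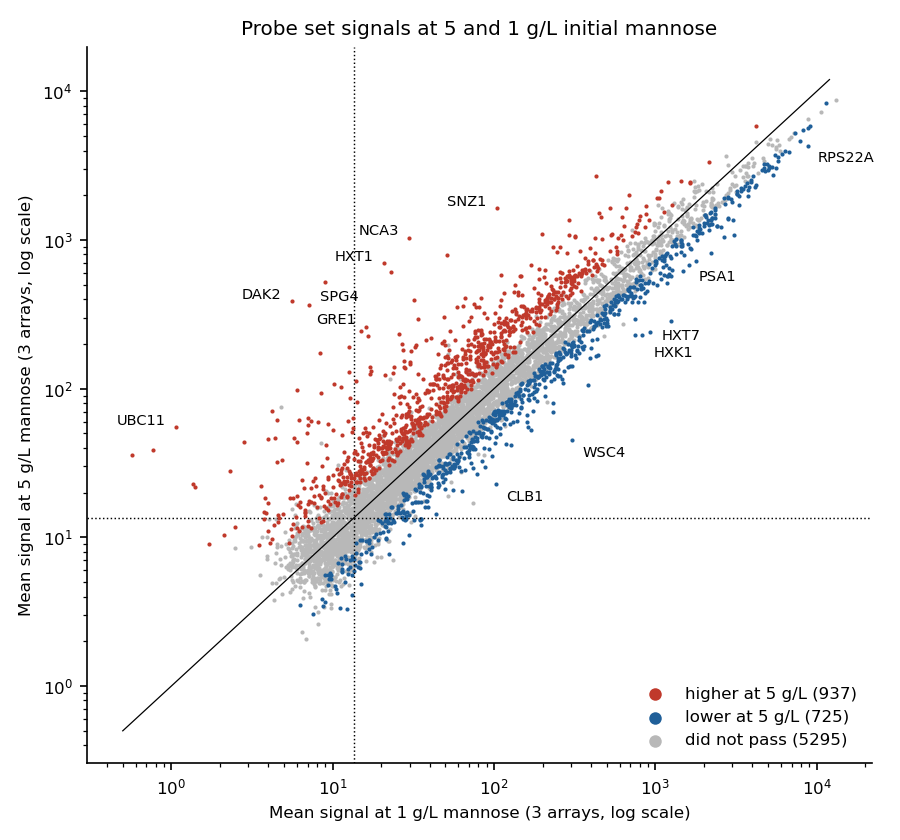
Mean probe set signal at 5 g/L (vertical axis, log scale) against the mean at 1 g/L (horizontal axis, log scale), 3 arrays each. Red points passed higher at 5 g/L (937), blue points passed lower (725), grey points did not pass (5295). Dotted lines mark the background of 13.5, and the points far above the diagonal, such as DAK2, UBC11 and NCA3, outnumber those far below it.

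Of the 12 genes with the largest rises, 9 lay at or below background on every 1 g/L array. DAK2, a dihydroxyacetone kinase, had signals of 326, 457 and 376 at 5 g/L, against 4.5, 7.9 and 4.4 at 1 g/L. SPG4, a gene named for survival in stationary phase, had 404, 333 and 352 at 5 g/L, against 7.6, 6.3 and 7.6 at 1 g/L. The 3 arrays at 1 g/L were at or below background in both genes, and every 5 g/L array was far above it, so that the rise was at least 28.3-fold for DAK2 (log2 change 6.15 ± 0.36, adjusted p = 6.05e-08) and at least 26.8-fold for SPG4 (log2 change 5.66 ± 0.16, adjusted p = 6.1e-11). The error beside a log2 change is its standard error, and the adjusted p comes from limma with Benjamini-Hochberg adjustment over all probe sets tested. Where a gene lay at background at 1 g/L, its log2 change rests on signals at or below background, and the fold given as "at least" is the bound. Signals under 1.5 were also raised to a floor of 1.5, which enters the log2 change of genes such as UBC11. DAK2 and SPG4 had no signal that low on these arrays. UBC11, a ubiquitin-conjugating enzyme, had 56.6, 62.5 and 45.5 at 5 g/L, against 0.4, 1.3 and 1.5 at 1 g/L, at least 4.03-fold higher (adjusted p = 4.09e-08). Signals this far below background have no readable order among themselves.

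NCA3, a cell wall protein of the SUN family, had 1046, 1101 and 966 at 5 g/L, against 23.4, 40.5 and 25.7 at 1 g/L. It was above background on all 6 arrays, and its mean was 35.7-fold higher (log2 change 5.16 ± 0.22, adjusted p = 2.03e-09). The low-affinity hexose transporter gene HXT1 and the vitamin gene SNO1, taken up again below, were 34.4-fold and 26.9-fold higher. PRM5, a membrane protein induced by pheromone and by cell wall stress, was at least 12.8-fold higher, with 166, 190.2 and 164 at 5 g/L, against 9.6, 7.7 and 7.6 at 1 g/L (adjusted p = 1.32e-05). GID10, a substrate receptor of the GID ubiquitin ligase that degrades gluconeogenic enzymes, had 91.5, 105 and 95.7 at 5 g/L, against 4.5, 6.2 and 7.3 at 1 g/L, at least 7.21-fold higher (adjusted p = 1.11e-05). PDC6, a minor pyruvate decarboxylase, had 45.2, 48.8 and 38 at 5 g/L, against 6.2, 1.2 and 1.1 at 1 g/L, at least 3.24-fold higher (adjusted p = 8e-06). Its log2 change was 4.18 and, without 1 g/L replicate 1, 4.87, a difference that rests on signals below background. The open reading frames YKL107W (35.6, 38.8 and 32.9 at 5 g/L, against 0.5, 0.8 and 0.4 at 1 g/L) and YOR338W (71.6, 72.3 and 68.7 at 5 g/L, against 5.9, 1.1 and 5.7 at 1 g/L) were also among the 12 largest rises, at least 2.64-fold and 5.25-fold higher. The log2 change of YOR338W was 4.26 and, without 1 g/L replicate 2, 3.61, again from signals below background.

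The 12 largest falls ran from 1.57 to 2.76 on the log2 scale, and in 11 of them the 5 g/L arrays stayed above background, YBL029W only just. WSC4, of the WSC family of membrane proteins, had signals of 39.9, 49.9 and 45.6 at 5 g/L, against 336, 312 and 270.0 at 1 g/L. Its arrays at 5 g/L all lay far below those at 1 g/L, 6.78-fold in the mean (log2 change -2.76 ± 0.15, adjusted p = 4.34e-08). CLB1, a B-type cyclin of mitosis, had 22.2, 23.7 and 22.5 at 5 g/L, against 97.7, 96.9 and 113 at 1 g/L, and the groups were again well apart (log2 change -2.17 ± 0.17, adjusted p = 1.01e-06). HHO1, the linker histone, had 52.1, 49.1 and 57.8 at 5 g/L, against 204, 182.5 and 119 at 1 g/L (-1.64 ± 0.30, adjusted p = 0.00125). CWP1, a mannoprotein of the wall, had 197, 249.9 and 243 at 5 g/L, against 741, 754 and 752 at 1 g/L, and fell by 1.71 ± 0.14 on the log2 scale (adjusted p = 1.52e-06). PUT4, the proline permease, fell by 1.73 ± 0.21 (adjusted p = 4.98e-05) and DIC1, the mitochondrial dicarboxylate carrier, by 1.57 ± 0.18 (adjusted p = 3.37e-05). RPI1, a regulator tied to the Ras pathway, fell by 1.62 ± 0.18 (adjusted p = 2.62e-05) and the open reading frame YBL029W by 1.61 ± 0.21 (adjusted p = 8.39e-05). SFG1, a putative transcription factor of pseudohyphal growth, was at background on the 5 g/L arrays (8.9, 11.8 and 6.9 at 5 g/L, against 23.3, 29.5 and 29.3 at 1 g/L), at least 2.02-fold lower (adjusted p = 7.4e-05). The remaining 3 of the 12, HXT6, HXT7 and HXK1, belong to sugar uptake and phosphorylation. These 24 rises and falls were picked among genes whose groups did not overlap on these same arrays. Their direction with the session as a block, which compares 5 g/L replicate 3 with the 1 g/L arrays, was therefore fixed in advance.

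**Figure D2:**
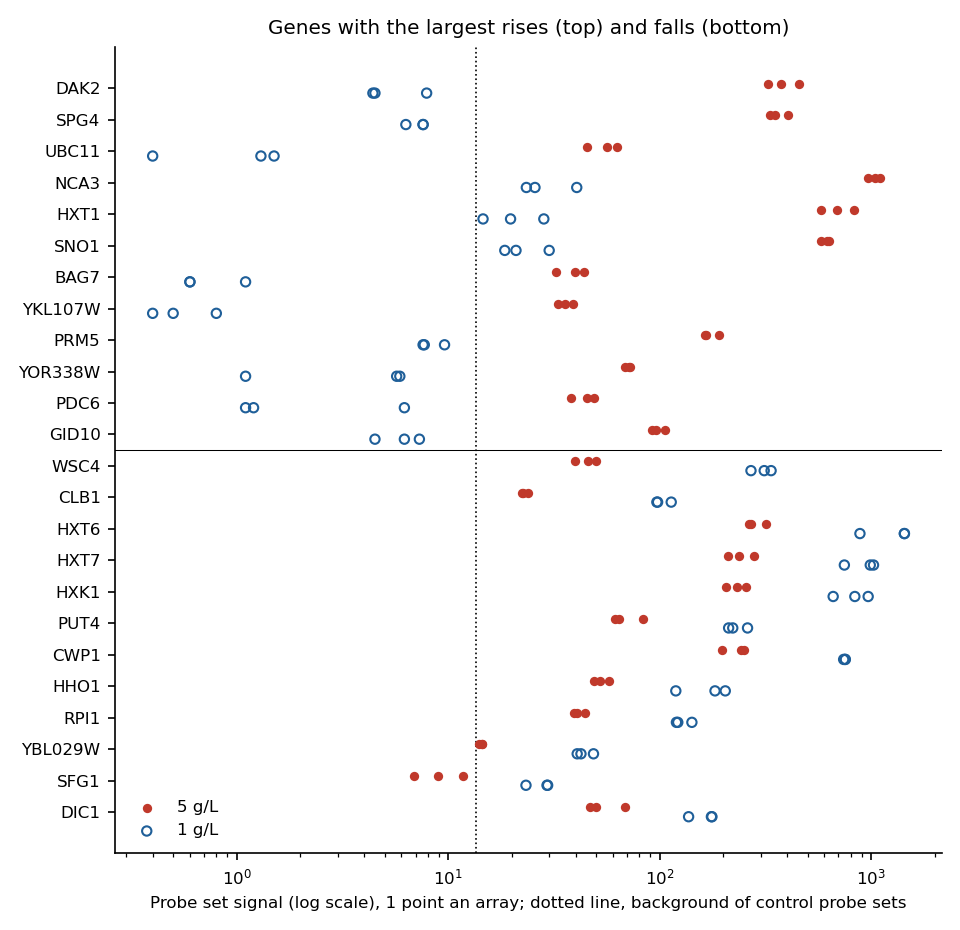
Signals of the 12 largest rises and 12 largest falls on each array (horizontal axis, log scale), filled points for 5 g/L and open points for 1 g/L. The dotted line is the background of 13.5. Of the rises, 9 genes lay at or below it on the 1 g/L arrays, while all falls except SFG1 stayed above it at 5 g/L.

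Genes that make GDP-mannose were lower at 5 g/L. PSA1, which makes GDP-mannose itself, had signals of 713, 618 and 713.5 at 5 g/L, against 1807, 1400.5 and 1613 at 1 g/L. SEC53, the phosphomannomutase, had 509, 598 and 601 at 5 g/L, against 1216.5, 1061.5 and 1284 at 1 g/L. Every 5 g/L array was below every 1 g/L array in both genes, which fell by 1.23 ± 0.15 (adjusted p = 4.89e-05) and 1.06 ± 0.13 on the log2 scale (adjusted p = 7.32e-05). GUK1, the guanylate kinase that recycles the GMP left after mannose transfer, had 498, 739.7 and 491 at 5 g/L, against 1151, 1042 and 1407 at 1 g/L (-1.07 ± 0.19, adjusted p = 0.000981). VRG4, the transporter that brings GDP-mannose into the Golgi, had 189, 228 and 226.5 at 5 g/L, against 468, 320.0 and 429 at 1 g/L (-0.91 ± 0.22, adjusted p = 0.0088). In the list of 8 genes of GDP-mannose supply 6 fell, 1 rose and 1 did not pass, with a median log2 change of -0.77, where 11.3% of all genes fell and the median was -0.02. Named to complete the list, DPM1, which makes dolichol phosphate mannose, fell by 0.52 ± 0.16 (adjusted p = 0.0278) and GDA1, a Golgi guanosine diphosphatase, by 0.64 ± 0.17 (adjusted p = 0.0149), while YND1, an apyrase of the Golgi, was at 0.21 ± 0.18 (adjusted p = 0.438). The median was -0.80 within the later session and -0.76 on station 2, but 3 of the 6 falls passed with the session as a block.

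The member that rose was PMI40, the deleted gene. Its probe set gave 253, 229.8 and 242 at 5 g/L, against 163, 113 and 200.3 at 1 g/L, well above background in both groups (log2 change 0.64 ± 0.19, adjusted p = 0.0232). Whether this probe set lies within the deleted part of the gene is not stated in the labels or files, and its signal checks neither the deletion nor the labels. PMI40 lost its call without 5 g/L replicate 1 or 3 or 1 g/L replicate 2 (0.42 to 0.64, adjusted p = 0.0616 to 0.0938). PMI40 did not pass with the session as a block (adjusted p = 0.168). The call was also lost after quantile normalization and after median scaling.

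Among genes of mannose transfer the changes that passed were mostly falls, in shares near those of all genes, of which 23.1% passed. PMT4, an O-mannosyltransferase of the endoplasmic reticulum, had 118, 167.5 and 141 at 5 g/L, against 321, 297 and 263 at 1 g/L and fell by 1.06 ± 0.18 (adjusted p = 0.00073). OCH1, which begins the outer mannan chain of N-glycans, had 25.8, 31.8 and 30.1 at 5 g/L, against 65.2, 40.6 and 60 at 1 g/L and fell by 0.90 ± 0.20 (adjusted p = 0.0045). YUR1, a Golgi mannosyltransferase of another family, moved the other way, with 62.4, 75.5 and 58.6 at 5 g/L, against 23.9, 28.2 and 39.4 at 1 g/L (1.13 ± 0.19, adjusted p = 0.000699). The groups did not overlap in any of these genes. MNN10, of a Golgi complex that extends mannan, fell by 0.67 ± 0.21 (adjusted p = 0.0297). Of 29 genes of O-mannosylation and Golgi mannan 2 rose, 3 fell and 24 did not pass, the list median being -0.26. The count of rises in this list was 1 without 5 g/L replicate 1, 1 without 5 g/L replicate 2, 1 without 5 g/L replicate 3, 4 without 1 g/L replicate 1 and 1 without 1 g/L replicate 3. MNN10 lost its call without 5 g/L replicate 1 or 2 or 1 g/L replicate 1 or 3 (-0.65 to -0.54, adjusted p = 0.0771 to 0.111). OCH1 and MNN10 did not pass with the session as a block (adjusted p = 0.0832 and 0.492).

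In N-glycosylation 4 of 26 genes fell and 1 rose, a median of -0.25, where 11.3% of all genes fell and 11.7% rose. ALG14, of the enzyme that adds the second N-acetylglucosamine to the lipid-linked precursor, had 33.9, 41.1 and 40.5 at 5 g/L, against 69.6, 60 and 79 at 1 g/L (-0.85 ± 0.17, adjusted p = 0.003). ALG9, a mannosyltransferase of the same precursor, fell by 0.62 ± 0.15 (adjusted p = 0.00778) and SWP1, a subunit of oligosaccharyltransferase, by 0.61 ± 0.13 (adjusted p = 0.00352). SEC59, dolichol kinase, had 50.7, 63.5 and 52.4 at 5 g/L, against 40.1, 35 and 31.3 at 1 g/L (0.65 ± 0.20, adjusted p = 0.0287), a call lost after quantile normalization and median scaling. SEC59 lost its call without 5 g/L replicate 2 or 3 or 1 g/L replicate 2 or 3 (0.55 to 0.69, adjusted p = 0.0564 to 0.0999). ALG14, SWP1, ALG9 and SEC59 did not pass with the session as a block (adjusted p from 0.0747 to 0.259). Of 23 genes of GPI anchor synthesis 3 fell and 0 rose in the limma test (4 and 0 at an unadjusted p under 0.05), with a median of -0.24. GWT1, which acylates the inositol of the anchor, had 38.5, 48.9 and 32.9 at 5 g/L, against 77.6, 111 and 70.7 at 1 g/L (-1.10 ± 0.23, adjusted p = 0.00301). MCD4, an ethanolamine phosphate transferase of the anchor, fell by 0.87 ± 0.19 (adjusted p = 0.00493) and LAS21, another, by 0.67 ± 0.22 (adjusted p = 0.0411). LAS21 lost its call without 5 g/L replicate 1 or 2 or 1 g/L replicate 1, 2 or 3 (-0.74 to -0.45, adjusted p = 0.0578 to 0.165). MCD4 and LAS21 did not pass with the session as a block (adjusted p = 0.0541 and 0.561).

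The mannoproteins of the cell wall changed in both directions. Of 26 tested 11 rose and 6 fell, with a median of 0.12, against 11.7% rising and 11.3% falling among all genes. TIP1, a mannoprotein induced by cold shock, had 968, 1122 and 1191 at 5 g/L, against 207, 175 and 209 at 1 g/L and was 5.55-fold higher (log2 change 2.47 ± 0.17, adjusted p = 2.76e-07). AGA1, which anchors the agglutinin of MATa cells to the wall, had 249, 351 and 305 at 5 g/L, against 52.7, 46.7 and 46.7 at 1 g/L (2.62 ± 0.18, adjusted p = 3.22e-07). SPI1, a GPI-anchored wall protein of stationary phase, had 901, 941.5 and 832 at 5 g/L, against 205, 246 and 319 at 1 g/L (1.82 ± 0.18, adjusted p = 7.9e-06). In these 3 every 5 g/L array was above every 1 g/L array, and in CWP1, above, it was the reverse. With the session as a block 6 members rose and 3 fell. The count of falls was 3 without 5 g/L replicate 3 and 3 without 1 g/L replicate 3.

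Of 39 genes of glucan and chitin synthesis 12 fell, 6 rose and 21 did not pass, with a median of -0.17, and 7 fell and 2 rose when the session was a block. Over all genes 11.3% fell and 11.7% rose. The glucanosyltransferase genes, which extend and branch wall glucan, were among the falls. GAS1, the main one, had 1959, 1908 and 2050.3 at 5 g/L, against 3574, 3611 and 4134 at 1 g/L and fell by 0.93 ± 0.13 (adjusted p = 0.000175). GAS5 had 437, 404 and 521 at 5 g/L, against 940.4, 805 and 917 at 1 g/L (-0.97 ± 0.14, adjusted p = 0.000213), and GAS3, a putative member, had 58.1, 84.3 and 57.1 at 5 g/L, against 157, 128 and 194 at 1 g/L (-1.27 ± 0.18, adjusted p = 0.000218). The SUN family gene NCA3, described above, was the largest rise of that list. In the cell wall integrity pathway, whose membrane sensors pass wall stress through protein kinase C to the transcription factor Rlm1, 5 of 22 genes were higher and 2 lower. The sensor gene WSC2 had 75.2, 78.9 and 98.1 at 5 g/L, against 185, 148 and 160.2 at 1 g/L and fell by 0.97 ± 0.16 (adjusted p = 0.000595), the same direction as WSC4. RLM1 itself had 83.8, 111 and 89.4 at 5 g/L, against 60.2, 53 and 40.1 at 1 g/L (0.90 ± 0.25, adjusted p = 0.0172). RLM1 lost its call without 5 g/L replicate 2 or 1 g/L replicate 3 (0.74 to 0.78, adjusted p = 0.0658 to 0.0744). RLM1 did not pass with the session as a block (adjusted p = 0.178). The count of rises in this pathway was 1 without 5 g/L replicate 2, 2 without 5 g/L replicate 3, 2 without 1 g/L replicate 1, 2 without 1 g/L replicate 2 and 3 without 1 g/L replicate 3.

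Hexose transporter genes changed in opposite directions. HXT1, a low-affinity transporter whose gene is known for its induction by plentiful glucose, had signals of 687, 827 and 580.5 at 5 g/L, against 14.6, 19.7 and 28.3 at 1 g/L. HXT5, a transporter known from slow growth and stationary phase, had 168, 204 and 203 at 5 g/L, against 13.3, 11.7 and 13 at 1 g/L. Both were far higher on every 5 g/L array, HXT1 by 34.4-fold (log2 change 5.10 ± 0.27, adjusted p = 3.21e-08) and HXT5, at background at 1 g/L, by at least 14.1-fold (log2 change 3.92 ± 0.16, adjusted p = 2.03e-09). HXT7, a high-affinity transporter, had 237, 211 and 278 at 5 g/L, against 1025, 746 and 989.7 at 1 g/L, a fall of 3.79-fold in the mean (log2 change -1.92 ± 0.17, adjusted p = 2.08e-06). HXT6 had 269.8, 264 and 317 at 5 g/L, against 1435, 884 and 1435 at 1 g/L (-2.11 ± 0.20, adjusted p = 4.42e-06), but HXT6 and HXT7 are nearly identical and their probe sets may share transcripts. The log2 change was 4.85 within the later session and 5.23 on station 2 for HXT1, and -1.71 within the later session and -2.03 on station 2 for HXT7. The 10 hexose transport genes tested gave 3 rises and 3 falls, against 11.7% rising and 11.3% falling among all genes. To complete those counts, chosen after their values were seen, MAL11, a maltose and trehalose symporter, rose by 0.74 ± 0.20 (adjusted p = 0.0177) and HXT4, a high-affinity transporter, fell by 0.97 ± 0.28 (adjusted p = 0.0219), with arrays of the 2 concentrations that overlapped. HXT3, a low-affinity transporter, had 1241, 1179.5 and 1475 at 5 g/L, against 1045, 822 and 1069 at 1 g/L and did not pass (0.41 ± 0.22, adjusted p = 0.197).

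Among 32 genes of glucose sensing and repression 4 were higher, 6 lower and 22 not passing, around a median of -0.14. Of all genes 11.7% were higher and 11.3% lower. MTH1, a repressor of hexose transporter genes in the Rgt2 and Snf3 pathway, had 12.7, 9.1 and 18 at 5 g/L, against 44.6, 28.2 and 31.2 at 1 g/L (-1.41 ± 0.27, adjusted p = 0.00175), 2 of the arrays at 5 g/L being below background. ADR1, an activator of glucose-repressed genes, was at background at 1 g/L, with 11.8, 16.1 and 16.3 at 5 g/L, against 5.8, 3.6 and 2.2 at 1 g/L (2.02 ± 0.35, adjusted p = 0.000946), and the bound on its rise was 1.08-fold. PDE1, the low-affinity cyclic AMP phosphodiesterase, had 265, 322 and 269.7 at 5 g/L, against 112, 132 and 102.5 at 1 g/L (1.31 ± 0.19, adjusted p = 0.000249). RAS2, a GTPase that activates adenylate cyclase, fell by 0.67 ± 0.17 (adjusted p = 0.0116). MTH1 and RAS2 did not pass with the session as a block (adjusted p = 0.112 and 0.135). The count of rises was 2 without 5 g/L replicate 1, and that of falls 2 without 5 g/L replicate 1 and 3 without 1 g/L replicate 2.

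**Figure D3:**
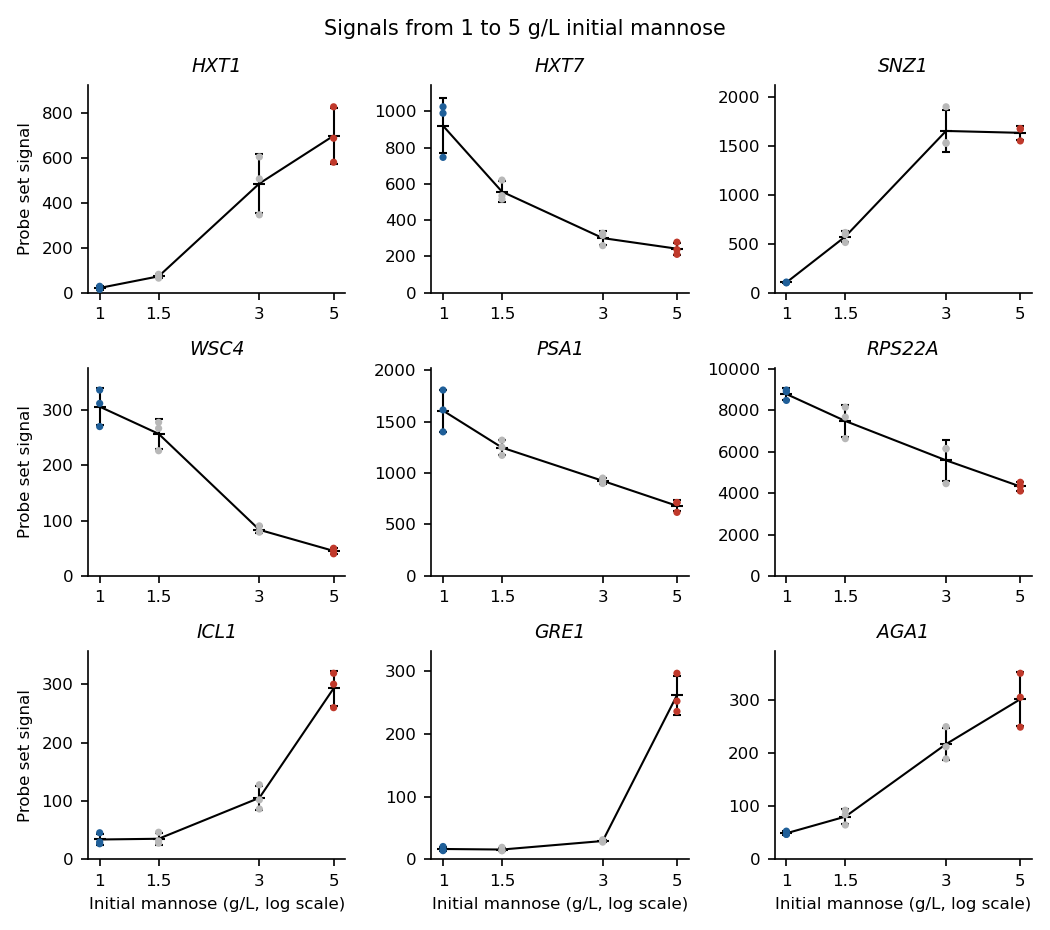
Signals of 9 genes at 1, 1.5, 3 and 5 g/L initial mannose (horizontal axis, log scale). Points are arrays, lines join the means and bars are SD (n = 3), with 5 g/L in red, 1 g/L in blue and the other concentrations in grey. SNZ1 had similar means at 3 and 5 g/L, while GRE1 averaged 262 at 5 g/L and 28.9 at 3 g/L.

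Hexokinase genes, which act at the first step of sugar use, were lower at 5 g/L. HXK1, the hexokinase isoenzyme known to be repressed by glucose, had 206, 255 and 232 at 5 g/L, against 837, 661 and 967 at 1 g/L (-1.82 ± 0.28, adjusted p = 0.000379). HXK2, the main hexokinase, had 517, 560.5 and 666 at 5 g/L, against 1292, 1055 and 1059 at 1 g/L (-0.97 ± 0.15, adjusted p = 0.000382). Each 5 g/L array lay below each 1 g/L array in both. EMI2, a hexokinase related to glucokinase, fell by 0.70 ± 0.19 (adjusted p = 0.0157) and GPM3, a homologue of phosphoglycerate mutase, by 0.68 ± 0.22 (adjusted p = 0.0346). These were all the falls among 21 glycolytic genes, of which 17 did not pass and 0 rose in the limma test (1 rose and 8 fell at an unadjusted p under 0.05). Among all genes 11.3% fell and 11.7% rose in that test. The list median of -0.33 was -0.01 after quantile normalization. EMI2 lost its call without 5 g/L replicate 1 or 1 g/L replicate 1 (-0.63 to -0.61, adjusted p = 0.0558 to 0.0664). GPM3 lost its call without 5 g/L replicate 1, 2 or 3 or 1 g/L replicate 2 or 3 (-0.72 to -0.59, adjusted p = 0.064 to 0.113). EMI2 and GPM3 did not pass with the session as a block (adjusted p = 0.144 and 0.151). The count of falls was 2 without 5 g/L replicate 1.

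Genes of storage sugars fell in part. PGM2, the major phosphoglucomutase, had 225, 101 and 175 at 5 g/L, against 439, 478 and 368 at 1 g/L (-1.43 ± 0.32, adjusted p = 0.00481), and its paralogue PGM1 had 82.2, 77.7 and 85.7 at 5 g/L, against 127, 148 and 171 at 1 g/L (-0.85 ± 0.16, adjusted p = 0.00199). TSL1, a subunit of trehalose synthase, had 517, 547 and 519 at 5 g/L, against 929, 872 and 919.9 at 1 g/L (-0.78 ± 0.14, adjusted p = 0.00118), and GSY1, a glycogen synthase, 12.4, 19.9 and 12.8 at 5 g/L, against 32.9, 28.4 and 32.6 at 1 g/L (-1.09 ± 0.19, adjusted p = 0.00105). GSY1 lay below background on 5 g/L replicates 1 and 3. Of 22 genes of trehalose and glycogen 6 fell, 1 rose and 15 did not pass, with a median of -0.26. The shares over all genes were 11.3% falling and 11.7% rising. PGM1 and PGM2 did not pass with the session as a block (adjusted p = 0.0584 and 0.0983). In the pentose phosphate pathway the oxidative and the other branch held the largest changes in opposite directions. GND1, the major phosphogluconate dehydrogenase, had 651, 759 and 747 at 5 g/L, against 1821, 1637 and 1882 at 1 g/L and fell by 1.31 ± 0.13 (adjusted p = 1.11e-05), and SOL3, a lactonase, had 137.5, 186.5 and 179.6 at 5 g/L, against 499, 396 and 433.5 at 1 g/L and fell by 1.41 ± 0.17 (adjusted p = 5.5e-05). TKL2, the minor transketolase, had 449, 307 and 419 at 5 g/L, against 34.1, 33.4 and 28.5 at 1 g/L, 12.1-fold higher (log2 change 3.60 ± 0.29, adjusted p = 1.17e-06). NQM1, a paralogue of transaldolase, had 85.2, 119.6 and 102 at 5 g/L, against 9.9, 14.1 and 9.6 at 1 g/L, with 2 of the 3 arrays at 1 g/L below background (log2 change 3.20 ± 0.20, adjusted p = 1.47e-07). Of the 13 genes of this pathway 3 rose and 2 fell.

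Genes of the glyoxylate cycle and gluconeogenesis, which yeast uses to grow on carbon sources without sugar, were higher at 5 g/L. ICL1, isocitrate lyase, had 300.2, 259.9 and 319 at 5 g/L, against 45.2, 29.4 and 26.3 at 1 g/L, and MLS1, malate synthase, had 37, 47.5 and 47.1 at 5 g/L, against 4.7, 6.9 and 6.4 at 1 g/L. In both the 5 g/L arrays lay well above the 1 g/L arrays, by 8.93-fold for ICL1 (log2 change 3.16 ± 0.25, adjusted p = 9.44e-07) and by at least 3.23-fold for MLS1, which was at background at 1 g/L (adjusted p = 1.16e-07). CIT3, a mitochondrial methylcitrate synthase, had 27.7, 19.7 and 18 at 5 g/L, against 1.9, 0.9 and 1.4 at 1 g/L, at least 1.59-fold higher (adjusted p = 3.21e-08), and IDP2, the cytosolic isocitrate dehydrogenase, 26.8, 26.2 and 26.1 at 5 g/L, against 9.9, 10 and 10.3 at 1 g/L, at least 1.95-fold higher (adjusted p = 0.000459). Of 13 genes tested 9 rose and 0 fell in the limma test, the same counts as at an unadjusted p under 0.05, with a median of 1.01, where 11.7% of all genes rose and the median was -0.02. The median was 0.84 within the later session and 1.03 on station 2. With the session as a block 6 rose.

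The carnitine shuttle, which carries acetyl groups into mitochondria, was higher as well. YAT1, an outer mitochondrial carnitine acetyltransferase, had 724, 861 and 785 at 5 g/L, against 43.4, 62.7 and 47.8 at 1 g/L, 15.5-fold higher (log2 change 3.96 ± 0.21, adjusted p = 3.21e-08). YAT2, a cytosolic one, had 247, 227 and 230.3 at 5 g/L, against 23.1, 20.1 and 33.7 at 1 g/L, 9.38-fold higher (log2 change 3.23 ± 0.19, adjusted p = 7.83e-08). CAT2, the major enzyme of mitochondria and peroxisomes, had 77.9, 73.7 and 73.3 at 5 g/L, against 21.8, 26.9 and 22.7 at 1 g/L (1.66 ± 0.16, adjusted p = 6.77e-06), and the carrier gene CRC1 51.3, 62.3 and 50.3 at 5 g/L, against 18.5, 13.7 and 15.3 at 1 g/L (1.79 ± 0.22, adjusted p = 7.13e-05). In the list of fatty acid oxidation and carnitine 7 of 19 rose, 1 fell and 11 did not pass, with a median of 0.73. Among all genes 11.7% rose and 11.3% fell. Of 20 genes of ethanol and acetate 10 were higher and 1 lower, a median of 0.45. Beside PDC6, ALD3, a cytosolic aldehyde dehydrogenase induced by stress, had 423, 341 and 467 at 5 g/L, against 84.8, 103 and 62.8 at 1 g/L (2.31 ± 0.21, adjusted p = 3.97e-06). ATO3, a putative ammonium exporter of the acetate transporter family, had 52.8, 61.8 and 54 at 5 g/L, against 22, 24.1 and 21.9 at 1 g/L (1.31 ± 0.25, adjusted p = 0.00199). The gene that fell was PDC5, a pyruvate decarboxylase, with 32.2, 45.3 and 41 at 5 g/L, against 75.2, 81.3 and 72.7 at 1 g/L (-0.96 ± 0.15, adjusted p = 0.000485). With the session as a block 5 of the 10 rises passed.

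In glycerol and dihydroxyacetone metabolism 4 of 12 genes were higher and 1 lower, and the count of rises was 2 without 5 g/L replicate 1 and 2 without 1 g/L replicate 3. DAK2 was the largest rise. GPP2, a glycerol 3-phosphatase, had 275, 261 and 275 at 5 g/L, against 132, 117 and 112 at 1 g/L (1.17 ± 0.20, adjusted p = 0.000818). GCY1, a glycerol dehydrogenase, had 497, 372 and 271 at 5 g/L, against 178, 282 and 162 at 1 g/L, and here replicate 3 at 5 g/L lay below replicate 2 at 1 g/L (0.87 ± 0.23, adjusted p = 0.0149). GUP1, an acyltransferase of GPI anchor remodelling first named for glycerol uptake, fell by 0.61 ± 0.18 (adjusted p = 0.0252). GCY1 lost its call without 5 g/L replicate 1 or 1 g/L replicate 1 or 3 (0.66 to 0.79, adjusted p = 0.0535 to 0.0736). GUP1 lost its call without 5 g/L replicate 1 or 3 or 1 g/L replicate 1 or 3 (-0.61 to -0.54, adjusted p = 0.0665 to 0.0941). GCY1 and GUP1 did not pass with the session as a block (adjusted p = 0.417 and 0.168). In the TCA cycle 4 of 25 genes were higher and 2 lower, close to the share of all genes that passed, and leaving out any 1 array left 0 or 1 falls. PYC1 and PYC2, the pyruvate carboxylases that refill the cycle, both rose. PYC1 had 1111, 1198 and 1426 at 5 g/L, against 653, 576 and 692 at 1 g/L (0.96 ± 0.19, adjusted p = 0.00275), and PYC2 had 679, 551 and 667 at 5 g/L, against 400.2, 387 and 259.7 at 1 g/L (0.88 ± 0.19, adjusted p = 0.00393). FUM1, fumarase, was at 0.67 ± 0.18 (adjusted p = 0.0149) and SDH2, of succinate dehydrogenase, at 0.50 ± 0.14 (adjusted p = 0.0206). FUM1 lost its call without 5 g/L replicate 1 or 3 or 1 g/L replicate 3 (0.59 to 0.64, adjusted p = 0.0519 to 0.0595). SDH2 lost its call without 5 g/L replicate 2 or 1 g/L replicate 1 or 2 (0.40 to 0.48, adjusted p = 0.0579 to 0.0828). FUM1 and SDH2 did not pass with the session as a block (adjusted p = 0.102 and 0.209). Most of the respiratory chain did not pass, 36 of 42 genes, with 1 higher and 5 lower. Among all genes 11.7% were higher and 11.3% lower. NDE2, an external NADH dehydrogenase, was the rise, with 52.9, 58.3 and 70.5 at 5 g/L, against 14.2, 16.4 and 6.9 at 1 g/L (2.36 ± 0.31, adjusted p = 9.57e-05). It lay below background on 1 g/L replicate 3. The respiratory growth gene RGI1 fell by 0.94 ± 0.20 (adjusted p = 0.00395), INH1, an inhibitor of ATP hydrolysis, by 0.67 ± 0.16 (adjusted p = 0.00895) and STF2, related to ATP synthase stability, by 0.86 ± 0.21 (adjusted p = 0.00971). INH1 and STF2 did not pass with the session as a block (adjusted p = 0.256 and 0.0699). The count of falls in the chain was 3 without 5 g/L replicate 3.

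Amino acid synthesis genes were higher at 5 g/L, 28 of 73, where 11.7% of all genes were. GLY1, threonine aldolase, which makes glycine, had 387, 462 and 441 at 5 g/L, against 159.7, 136.5 and 155 at 1 g/L. HIS5, an aminotransferase of histidine synthesis, had 375, 406 and 495 at 5 g/L, against 159, 147 and 115 at 1 g/L. TRP3, of tryptophan synthesis, had 283.5, 296 and 319.9 at 5 g/L, against 103, 114 and 135.5 at 1 g/L. In each of them the lowest 5 g/L array was above the highest 1 g/L array, and the log2 changes were 1.52 ± 0.15, 1.60 ± 0.19 and 1.36 ± 0.17 (adjusted p = 8.16e-06, 3.43e-05 and 7.1e-05). ORT1, the mitochondrial ornithine carrier of arginine synthesis, had 124, 166 and 155 at 5 g/L, against 60.3, 45.7 and 48.6 at 1 g/L (1.53 ± 0.21, adjusted p = 0.000153). Beside the 28 rises 1 gene fell and 44 did not pass, with a median of 0.42, 0.45 within the later session and 0.38 on station 2. The log2 change was above 0 in 60 of the 73, and above 0 in 48.1% of all genes. The counts were 16 higher and 0 lower when the session was a block.

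Sulfur assimilation and methionine genes were higher in part, with 8 of 33 higher, 4 lower and 21 not passing. Of all genes 11.7% were higher and 11.3% lower, so the falls were near the share of all genes. STR2, cystathionine gamma-synthase, had 189, 184 and 169 at 5 g/L, against 32.9, 71.6 and 53 at 1 g/L (1.85 ± 0.23, adjusted p = 5.85e-05). SUL1, a sulfate permease, had 67.8, 82.1 and 78.3 at 5 g/L, against 41.7, 31.2 and 33.9 at 1 g/L (1.10 ± 0.19, adjusted p = 0.00105), and MET22, a phosphatase of the pathway, 453, 524 and 489.7 at 5 g/L, against 319.7, 308 and 313 at 1 g/L (0.64 ± 0.13, adjusted p = 0.00262). SAH1, which cleaves S-adenosylhomocysteine, fell, with 412, 404 and 495 at 5 g/L, against 825, 806 and 942 at 1 g/L (-0.97 ± 0.14, adjusted p = 0.000225). The count of rises was 5 without 5 g/L replicate 2 and 5 without 1 g/L replicate 3, and that of falls 2 without 5 g/L replicate 2, 2 without 5 g/L replicate 3, 2 without 1 g/L replicate 1 and 2 without 1 g/L replicate 2. When the session was a block 3 members rose and 1 fell.

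Amino acid permease genes changed in both directions. DIP5, a permease of glutamate and aspartate, had 279.7, 274 and 128 at 5 g/L, against 14.8, 19.4 and 15.4 at 1 g/L, with 5 g/L replicate 3 below the other 2 yet far above all 1 g/L arrays (log2 change 3.70 ± 0.34, adjusted p = 3.55e-06). BAP2, a permease of branched-chain amino acids, had 101, 110.1 and 128 at 5 g/L, against 13, 13.1 and 15.9 at 1 g/L, with 2 of the 3 arrays at 1 g/L below background (log2 change 3.01 ± 0.20, adjusted p = 2.17e-07), and its relative BAP3 had 137.5, 95.2 and 146 at 5 g/L, against 22.6, 13.2 and 15.5 at 1 g/L, 7.45-fold higher with 1 array at 1 g/L below background (log2 change 2.90 ± 0.23, adjusted p = 1.01e-06). PUT4, among the largest falls above, went the other way, with 83.7, 64 and 61.7 at 5 g/L, against 212, 260.1 and 221 at 1 g/L. Among 33 genes listed for nitrogen catabolite repression and amino acid uptake 8 were higher and 5 lower. The shares of all genes were 11.7% higher and 11.3% lower. With the session as a block the counts were 8 higher and 4 lower.

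Vitamin B6 and thiamine genes were higher at 5 g/L. SNZ1 and SNO1, neighbouring genes whose products form the complex of vitamin B6 synthesis, were far apart between the groups. SNZ1 had signals of 1676, 1549 and 1670.1 at 5 g/L, against 100.1, 108 and 103 at 1 g/L. SNO1 had 616, 631 and 580.5 at 5 g/L, against 18.5, 20.9 and 30 at 1 g/L. SNZ1 was 15.7-fold higher (log2 change 3.98 ± 0.14, adjusted p = 3.64e-10) and SNO1 26.9-fold higher (log2 change 4.75 ± 0.18, adjusted p = 7.2e-10). THI4, of thiamine synthesis, had 84.5, 109 and 83.7 at 5 g/L, against 17.8, 23.5 and 30.3 at 1 g/L (1.98 ± 0.22, adjusted p = 2.85e-05). PET18, a gene of the thiamine group, was at background at 1 g/L, with 20.6, 25.1 and 22.2 at 5 g/L, against 12, 10.5 and 10.8 at 1 g/L, at least 1.67-fold higher (adjusted p = 0.000552). Of 17 genes of vitamin B6 and thiamine 8 were higher and 1 lower, a median of 0.50, where 11.7% of all genes were higher.

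Iron uptake genes were higher in part, while falls were no more frequent than among all genes. FET3 and FTR1, the oxidase and the permease of high-affinity iron uptake, both fell. FET3 had 74.8, 72.6 and 75 at 5 g/L, against 163, 133 and 146 at 1 g/L (-0.99 ± 0.14, adjusted p = 0.000238), and FTR1 had 79.7, 96.5 and 78.6 at 5 g/L, against 146, 135.5 and 156.5 at 1 g/L (-0.78 ± 0.17, adjusted p = 0.00394). The siderophore transporters ENB1 and ARN1 rose. ENB1 had 139, 192 and 163 at 5 g/L, against 76.8, 80.6 and 97.9 at 1 g/L (0.95 ± 0.18, adjusted p = 0.00178), and ARN1 had 54, 43.6 and 26.8 at 5 g/L, against 13, 25.1 and 15.8 at 1 g/L (1.20 ± 0.26, adjusted p = 0.00376). ARN1 lay below background on 1 g/L replicate 1. Among the 19 genes listed for iron, 6 were higher, 2 lower and 11 did not pass, where 11.7% of all genes rose and 11.3% fell. Only 1 of the rises passed with the session as a block. ARN1 did not pass with the session as a block (adjusted p = 0.214). In the phosphate pathway 4 of 19 were higher and 1 lower. PHM7, a membrane protein, had 147, 179.5 and 162 at 5 g/L, against 56.8, 51.3 and 62.6 at 1 g/L (1.51 ± 0.14, adjusted p = 2.92e-06), and PHM8, a phosphatase, 40.9, 32 and 41.7 at 5 g/L, against 13.7, 12.3 and 20.6 at 1 g/L (1.32 ± 0.20, adjusted p = 0.000399). PHM8 lay below background on 1 g/L replicate 2. PHO8, the vacuolar alkaline phosphatase, rose by 0.81 ± 0.15 (adjusted p = 0.00152) and VTC1, of polyphosphate synthesis, fell by 0.64 ± 0.14 (adjusted p = 0.00497).

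The general stress response, the set of genes that yeast induces under many stresses through Msn2 and Msn4, was higher in part. GRE1, a hydrophilin, had 252.5, 236 and 297 at 5 g/L, against 14.8, 20.1 and 13.5 at 1 g/L, 16.4-fold higher with 1 array at 1 g/L no higher than background (log2 change 4.04 ± 0.18, adjusted p = 4.73e-09). SIP18, another hydrophilin, had 131, 150.5 and 156 at 5 g/L, against 31.5, 30.7 and 28.3 at 1 g/L (2.27 ± 0.21, adjusted p = 3.24e-06), and HSP30, a membrane protein of heat shock, 1372, 1489.6 and 1684 at 5 g/L, against 496, 429 and 418 at 1 g/L (1.76 ± 0.15, adjusted p = 1.87e-06). PAI3, an inhibitor of proteinase A, had 159, 164 and 176 at 5 g/L, against 47.7, 49.4 and 56.5 at 1 g/L (1.70 ± 0.13, adjusted p = 7.25e-07). In all 4 the groups lay apart. Of 30 genes 15 rose and 3 fell, with a median of 0.43, 0.50 within the later session and 0.38 on station 2. Among all genes 11.7% rose and 11.3% fell. When the session was a block 10 rose and 1 fell.

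Heat shock chaperones rose alongside, 9 of 19, with 1 lower and 9 not passing and a median of 0.57. Over all genes 11.7% were higher and 11.3% lower. SSE2, a nucleotide exchange factor of HSP70, had 625, 627 and 619.9 at 5 g/L, against 217, 180.5 and 219.5 at 1 g/L (1.61 ± 0.16, adjusted p = 6.94e-06). STI1, which links HSP70 and HSP90, had 1669, 1525.5 and 1729 at 5 g/L, against 813, 448 and 720.4 at 1 g/L (1.36 ± 0.19, adjusted p = 0.000189). CPR6, a cyclophilin of HSP90, rose by 1.03 ± 0.15 (adjusted p = 0.000183) and FES1, an exchange factor of HSP70, by 1.01 ± 0.15 (adjusted p = 0.000248). Oxidative stress genes did not share that direction, with 5 of 29 higher, 8 lower and 16 not passing, and with 1 higher and 2 lower when the session was a block. SOD1, the cytosolic superoxide dismutase, had 1247, 1096.5 and 992 at 5 g/L, against 1734, 2118 and 1999 at 1 g/L (-0.81 ± 0.17, adjusted p = 0.00311). TRR1, thioredoxin reductase, fell by 0.71 ± 0.14 (adjusted p = 0.00192) and OYE3, an NADPH oxidoreductase, by 1.15 ± 0.20 (adjusted p = 0.000858), while GPX1, a glutathione peroxidase, rose by 1.08 ± 0.21 (adjusted p = 0.00187). TRR1 and GPX1 did not pass with the session as a block (adjusted p = 0.0653 and 0.0892). The count of rises was 3 without 1 g/L replicate 1 and 3 without 1 g/L replicate 3, and that of falls 5 without 5 g/L replicate 2.

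Chaperones and the unfolded protein response of the endoplasmic reticulum, where N-glycosylation and O-mannosylation begin, had 1 of 21 genes higher and 3 lower, where 23.1% of all genes passed, and the count of falls was 1 without 5 g/L replicate 1. ERO1, the oxidase of disulfide formation, was the rise, with 41, 48.9 and 49 at 5 g/L, against 8.5, 26 and 24.5 at 1 g/L, where 1 g/L replicate 1 lay below background (1.39 ± 0.33, adjusted p = 0.00707). PDI1, protein disulfide isomerase, had 732, 863 and 877 at 5 g/L, against 1245, 1111 and 1174 at 1 g/L (-0.52 ± 0.13, adjusted p = 0.0106). SIL1, an exchange factor of the HSP70 of this compartment, fell by 0.87 ± 0.18 (adjusted p = 0.00262) and ERD2, the receptor that retrieves its proteins, by 0.56 ± 0.16 (adjusted p = 0.0225). PDI1 lost its call without 5 g/L replicate 1 (-0.43, adjusted p = 0.0519). ERD2 lost its call without 5 g/L replicate 1 or 3 or 1 g/L replicate 3 (-0.56 to -0.46, adjusted p = 0.0587 to 0.0905). ERO1, PDI1 and ERD2 did not pass with the session as a block (adjusted p from 0.0697 to 0.189).

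Ribosomal protein genes were lower at 5 g/L, in the cytosolic and the mitochondrial set. RPS22A, of the small cytosolic subunit, had signals of 4336, 4525 and 4103 at 5 g/L, against 8906, 8986 and 8485 at 1 g/L, a fall of 2.04-fold (log2 change -1.03 ± 0.15, adjusted p = 0.000306). Its near-identical paralogue RPS22B had 536, 729.7 and 671 at 5 g/L, against 1219, 1133 and 1287 at 1 g/L (-0.92 ± 0.16, adjusted p = 0.001), and their probe sets may share transcripts, as may those of the other duplicated ribosomal protein genes. RPS21A fell by 0.78 ± 0.14 (adjusted p = 0.00141) and RPL24B by 0.76 ± 0.13 (adjusted p = 0.00105), 2 calls that did not hold after quantile normalization. Of 80 cytosolic ribosomal protein genes with a probe set of their own, out of 137 listed, 50 fell and 0 rose in the limma test (61 and 0 at an unadjusted p under 0.05), with a median of -0.57, where 11.3% of all genes fell. The log2 change was above 0 in 1 of the 80. After quantile normalization 21 fell and the median was -0.32, and after median scaling 52 fell with a median of -0.65. When the session was a block 10 fell, while the median was -0.49 within the later session and -0.61 on station 2. That count of falls was 27 without 5 g/L replicate 2 and 29 without 1 g/L replicate 3.

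MRPL39, of the large mitochondrial subunit, had 491, 499 and 447 at 5 g/L, against 822, 813.5 and 871.5 at 1 g/L (-0.80 ± 0.14, adjusted p = 0.000751). MRPL19, of the same subunit, had 50.7, 51.9 and 50.8 at 5 g/L, against 86.7, 108 and 93.2 at 1 g/L (-0.90 ± 0.14, adjusted p = 0.000452). MRPL49 and RML2, also of the large subunit, fell by 0.97 ± 0.17 and 0.89 ± 0.16 (adjusted p = 0.00089 and 0.00144). The 5 g/L arrays lay below the 1 g/L arrays in all 4. Of 72 mitochondrial ribosomal protein genes 34 fell and 0 rose in the limma test (53 and 0 at an unadjusted p under 0.05), with a median of -0.58, and 51 fell after quantile normalization. Of all genes 11.3% fell in the limma test. When the session was a block 13 fell, and in the fit without it the count was 22 without 5 g/L replicate 3. The log2 change was above 0 in 4 of the 72.

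Of the genes that build ribosomes few passed, where 23.1% of all genes did. Of 99 ribosome biogenesis genes 95 did not pass, 1 rose and 3 fell, and the median was 0.00, beside -0.02 over all genes. The count of falls was 1 without 5 g/L replicate 2, 0 without 5 g/L replicate 3 and 1 without 1 g/L replicate 1. REI1, of cytoplasmic maturation of the large subunit, had 76.2, 59.2 and 64.4 at 5 g/L, against 18.6, 37.8 and 24.3 at 1 g/L (1.36 ± 0.30, adjusted p = 0.00512). GAR1 and NHP2, of the particles that modify uridines in ribosomal RNA, both fell. GAR1 had 407, 480.2 and 376 at 5 g/L, against 560.5, 669.5 and 742 at 1 g/L (-0.64 ± 0.17, adjusted p = 0.0153). NHP2 had 803, 759.6 and 786 at 5 g/L, against 1122, 1146 and 1034 at 1 g/L (-0.49 ± 0.15, adjusted p = 0.0275), a call lost after quantile normalization. NOP13, a nucleolar protein, was at -0.58 ± 0.18 (adjusted p = 0.0345). GAR1 lost its call without 5 g/L replicate 3 or 1 g/L replicate 3 (-0.56 to -0.55, adjusted p = 0.0628 to 0.0656). NHP2 lost its call without 5 g/L replicate 1, 2 or 3 or 1 g/L replicate 1 or 2 (-0.51 to -0.46, adjusted p = 0.0584 to 0.0734). NOP13 lost its call without 5 g/L replicate 1, 2 or 3 or 1 g/L replicate 1 (-0.58 to -0.40, adjusted p = 0.0732 to 0.141). REI1, GAR1, NHP2 and NOP13 did not pass with the session as a block (adjusted p from 0.0597 to 0.208).

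Of 37 genes of RNA polymerases I and III 34 did not pass, 1 rose and 2 fell, where 23.1% of all genes passed. RPC82, of polymerase III, had 40.7, 30.1 and 29.2 at 5 g/L, against 19.1, 21.2 and 9.1 at 1 g/L (1.09 ± 0.31, adjusted p = 0.0205), while RPC19, shared by both enzymes, was at -0.51 ± 0.16 (adjusted p = 0.0303) and RPA43, of polymerase I, at -0.64 ± 0.22 (adjusted p = 0.0461). RPC82 lay below background on 1 g/L replicate 3. Of 46 genes of tRNA synthetases and translation factors 41 did not pass, 1 rose and 4 fell, and the count of falls was 2 without 5 g/L replicate 1, 2 without 5 g/L replicate 3 and 1 without 1 g/L replicate 2. YHR020W, a prolyl-tRNA synthetase, had 591, 436 and 491 at 5 g/L, against 360.4, 258 and 298 at 1 g/L (0.73 ± 0.17, adjusted p = 0.00718). TEF4 and EFB1, of elongation factor eEF1B, fell by 0.87 ± 0.20 and 0.63 ± 0.17 (adjusted p = 0.00646 and 0.0151), and the call of EFB1 was lost after quantile normalization. TIF4632, of initiation factor eIF4G, fell by 0.69 ± 0.19 (adjusted p = 0.0161) and lay below background on 5 g/L replicates 1 and 3. RPC82 lost its call without 5 g/L replicate 1 or 1 g/L replicate 3 (0.71 to 0.94, adjusted p = 0.0828 to 0.0859). RPC19 lost its call without 5 g/L replicate 2 or 3 or 1 g/L replicate 2 or 3 (-0.56 to -0.39, adjusted p = 0.0531 to 0.117). RPA43 lost its call without 5 g/L replicate 1 or 3 or 1 g/L replicate 1, 2 or 3 (-0.69 to -0.52, adjusted p = 0.0681 to 0.16). EFB1 lost its call without 5 g/L replicate 3 or 1 g/L replicate 2 (-0.56 to -0.50, adjusted p = 0.0625 to 0.0647). TIF4632 lost its call without 5 g/L replicate 1 or 1 g/L replicate 2 (-0.62 to -0.59, adjusted p = 0.0562 to 0.0706). RPC82, RPC19, RPA43, TEF4, YHR020W, EFB1 and TIF4632 did not pass with the session as a block (adjusted p from 0.0679 to 0.285).

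**Figure D4:**
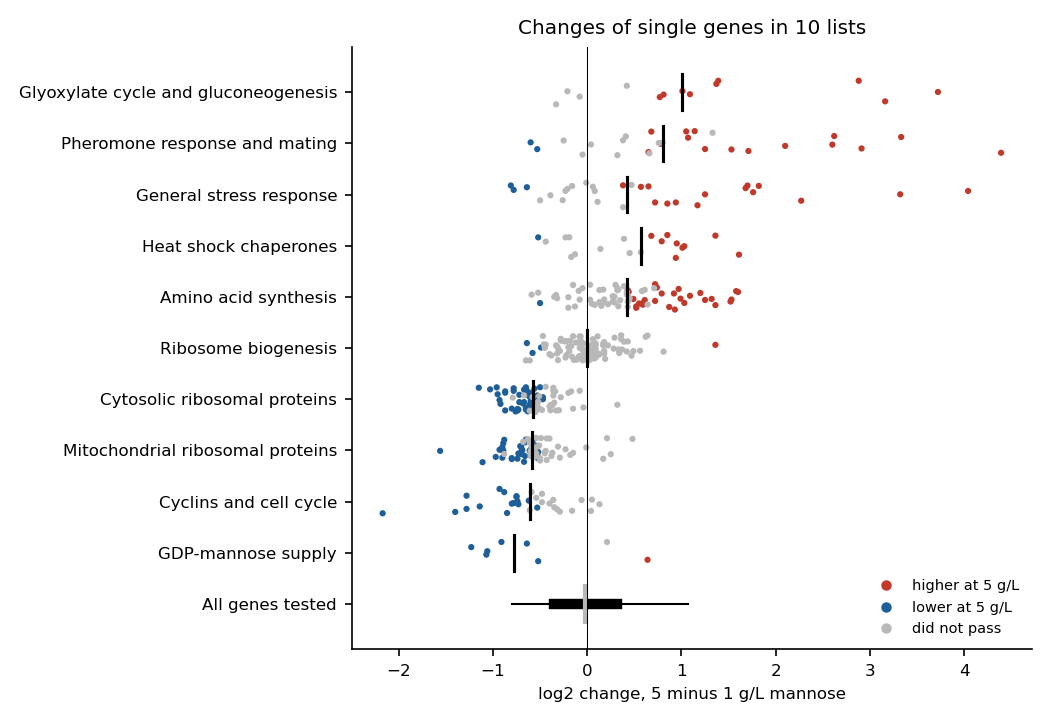
Log2 change (5 minus 1 g/L) of each tested gene in 10 lists, 1 point a gene, with black ticks for the list medians. The bottom row gives all genes tested, the thick bar from the 25th to the 75th percentile, the thin line from the 5th to the 95th and the grey tick at the median. All but 1 of the cytosolic and all but 4 of the mitochondrial ribosomal protein genes lie left of 0, while ribosome biogenesis genes lie on both sides of it.

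Cell cycle genes were lower at 5 g/L, with CLB1, above, the largest fall among them. WHI5, the repressor of the G1 to S transition, had 13.3, 13.1 and 13.6 at 5 g/L, against 37.6, 28.9 and 39.7 at 1 g/L (-1.40 ± 0.18, adjusted p = 9.81e-05), 2 of the arrays at 5 g/L being below background. RNR1, the large subunit of ribonucleotide reductase, which is made before DNA replication, had 149, 169 and 169 at 5 g/L, against 414, 364 and 407 at 1 g/L (-1.28 ± 0.20, adjusted p = 0.000494). PCL1, a G1 cyclin of the kinase Pho85, had 37.8, 31 and 33.6 at 5 g/L, against 60, 66.1 and 68.3 at 1 g/L (-0.93 ± 0.18, adjusted p = 0.00199). None of these genes had overlapping arrays. Of 31 cyclin and cell cycle genes 16 fell and 0 rose in the limma test (21 and 0 at an unadjusted p under 0.05), with a median of -0.61, -0.61 within the later session and -0.60 on station 2. Among all genes 11.3% fell in the limma test. A block for the session gave 7 falls, and in the fit without it the count was 10 without 5 g/L replicate 3.

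Genes of pheromone response and mating were higher. AGA2, the binding subunit of the MATa agglutinin, had 268.5, 276 and 312 at 5 g/L, against 72.1, 65.7 and 72.4 at 1 g/L (2.02 ± 0.15, adjusted p = 5.37e-07), beside AGA1 above. PRM1, of membrane fusion during mating, had 81.4, 89.8 and 74.9 at 5 g/L, against 10.9, 11.5 and 19.8 at 1 g/L (2.60 ± 0.22, adjusted p = 1.52e-06), with 2 of the 3 arrays at 1 g/L below background. PRM4, another pheromone-regulated gene, was at background at 1 g/L, with 56.5, 66.8 and 56.2 at 5 g/L, against 10.3, 6.7 and 7.2 at 1 g/L, at least 4.42-fold higher (adjusted p = 1.01e-06). In the pheromone list, which also holds PRM5 and AGA1, 15 of 27 rose, 2 fell and 10 did not pass, where 11.7% of all genes rose. The list had a median of 0.80. The median was 0.72 within the later session and 0.98 on station 2, and 9 rose with the session as a block.

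Markers of the cell types that such a culture could hold were read beside these genes. Of 8 MATa markers 4 rose and 1 fell, where 11.7% of all genes rose and 11.3% fell. The a-factor gene MFA1 had 2093, 1909 and 2014 at 5 g/L, against 679, 839.6 and 528 at 1 g/L (1.58 ± 0.20, adjusted p = 8.95e-05), and BAR1, the protease that degrades alpha-factor, had 286, 374 and 313 at 5 g/L, against 176, 159.7 and 136 at 1 g/L (1.04 ± 0.20, adjusted p = 0.00221). ASG7, a gene of MATa cells, had 22.1, 26.4 and 18.1 at 5 g/L, against 1, 6.1 and 3.7 at 1 g/L, at least 1.63-fold higher (adjusted p = 0.000136). MFA2, the other a-factor gene, had 1368.5, 1256 and 1252 at 5 g/L, against 2075, 2143 and 1789 at 1 g/L and fell by 0.63 ± 0.15 (adjusted p = 0.00799), and the alpha-factor receptor gene STE2 did not pass, with 115.5, 135 and 117 at 5 g/L, against 137, 145 and 155 at 1 g/L (-0.25 ± 0.16, adjusted p = 0.297). Of 4 MATalpha markers, the a-factor receptor gene STE3 was at background at 1 g/L. It had 20.5, 24.9 and 20.2 at 5 g/L, against 12.1, 11.1 and 7.2 at 1 g/L, at least 1.61-fold higher (log2 change 1.14 ± 0.25, adjusted p = 0.00522). The agglutinin gene SAG1 had 27.5, 19.7 and 34.7 at 5 g/L, against 15.5, 18.3 and 8.1 at 1 g/L (1.01 ± 0.31, adjusted p = 0.0278). SAG1 lay below background on 1 g/L replicate 3. The pheromone genes MF(ALPHA)1 and MF(ALPHA)2 did not pass. MF(ALPHA)2 was at background on all 6 arrays, and MF(ALPHA)1 was at 17, 23.7 and 18.1 at 5 g/L, against 26.1, 18.1 and 10.3 at 1 g/L. SAG1 lost its call without 5 g/L replicate 1 or 3 or 1 g/L replicate 3 (0.66 to 0.99, adjusted p = 0.0743 to 0.119). BAR1, STE3 and SAG1 did not pass with the session as a block (adjusted p from 0.053 to 0.102). Of 6 sporulation markers 2 were tested and neither passed, IME1, the inducer of meiosis, with 18.6, 20.5 and 13.3 at 5 g/L, against 8.7, 6.6 and 14.8 at 1 g/L (0.86 ± 0.36, adjusted p = 0.1). The part of these markers in the pheromone result was not tested.

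Ergosterol genes fell in part, 9 of 28, with 1 higher, 18 not passing and a median of -0.26. The shares of all genes were 11.3% lower and 11.7% higher. ERG25, a sterol oxidase, had 733, 992 and 906 at 5 g/L, against 1862, 1367 and 1707 at 1 g/L (-0.91 ± 0.17, adjusted p = 0.00141), and ERG28, a scaffold of the same complex, 72.8, 65.6 and 71.5 at 5 g/L, against 123, 112 and 149.9 at 1 g/L (-0.87 ± 0.16, adjusted p = 0.00125). MVD1, mevalonate pyrophosphate decarboxylase, fell by 0.59 ± 0.15 (adjusted p = 0.0112) and CYB5, cytochrome b5, by 0.56 ± 0.14 (adjusted p = 0.0109). CYB5 and MVD1 did not pass with the session as a block (adjusted p = 0.0713 and 0.109). The count of falls was 5 without 5 g/L replicate 1, and 2 fell with the session as a block. Among 27 genes regulated by low oxygen or heme 3 were higher and 8 lower. HEM13, an oxygen-dependent enzyme of heme synthesis, was at background on the 5 g/L arrays, with 11.2, 8.6 and 11 at 5 g/L, against 32, 26.2 and 31.4 at 1 g/L, at least 2.2-fold lower (adjusted p = 0.000235). HEM15, ferrochelatase, had 67.2, 80.6 and 110.2 at 5 g/L, against 170.5, 179.8 and 184.5 at 1 g/L (-1.08 ± 0.20, adjusted p = 0.00133). PDR11, a sterol importer, rose by 1.01 ± 0.19 (adjusted p = 0.00148), and CPR1, a cyclophilin, fell by 0.64 ± 0.13 (adjusted p = 0.0027), a call lost after quantile normalization. HEM15 and CPR1 did not pass with the session as a block (adjusted p = 0.0971 and 0.0971). Their count of falls was 5 without 5 g/L replicate 3. Of 35 proteasome genes 32 did not pass, 1 rose and 2 fell, where 23.1% of all genes passed. UMP1, an assembly chaperone, had 66.9, 56.2 and 69.9 at 5 g/L, against 41.7, 33.2 and 48.9 at 1 g/L (0.65 ± 0.15, adjusted p = 0.00712), while PRE3 and PUP1, of the catalytic core, were at -0.51 ± 0.14 and -0.63 ± 0.20 (adjusted p = 0.0168 and 0.031). PRE3 lost its call without 5 g/L replicate 1 or 3 or 1 g/L replicate 3 (-0.48 to -0.46, adjusted p = 0.0605 to 0.0646). PUP1 lost its call without 5 g/L replicate 2 or 3 or 1 g/L replicate 1, 2 or 3 (-0.66 to -0.48, adjusted p = 0.0581 to 0.124). PRE3 and PUP1 did not pass with the session as a block (adjusted p = 0.0945 and 0.0868).

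The session as a block also lowered most counts not yet given. It left 0 rises and 0 falls in N-glycosylation, in RNA polymerases I and III and in tRNA synthetases and translation factors. It gave 1 rise and 1 fall in O-mannosylation and Golgi mannan, 0 and 1 in GPI anchor synthesis, 1 and 2 in the cell wall integrity pathway, and 2 and 2 in hexose transport. The counts were 2 rises and 0 falls in glucose sensing, 0 and 2 in glycolysis, 0 and 2 in trehalose and glycogen, and 2 and 3 in the pentose phosphate pathway. They were 2 and 0 in the TCA cycle, 1 and 1 in the respiratory chain, 6 and 1 in fatty acid oxidation and carnitine, and 3 and 0 in glycerol metabolism. Vitamin genes had 5 rises and 0 falls, phosphate genes 3 and 1, heat shock chaperones 7 and 0, and the endoplasmic reticulum list 0 and 1. Ribosome biogenesis had 0 rises and 1 fall, the low-oxygen list 2 and 3, the proteasome 1 and 0, MATa markers 3 and 0, and MATalpha markers 0 and 0.

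**Figure D5:**
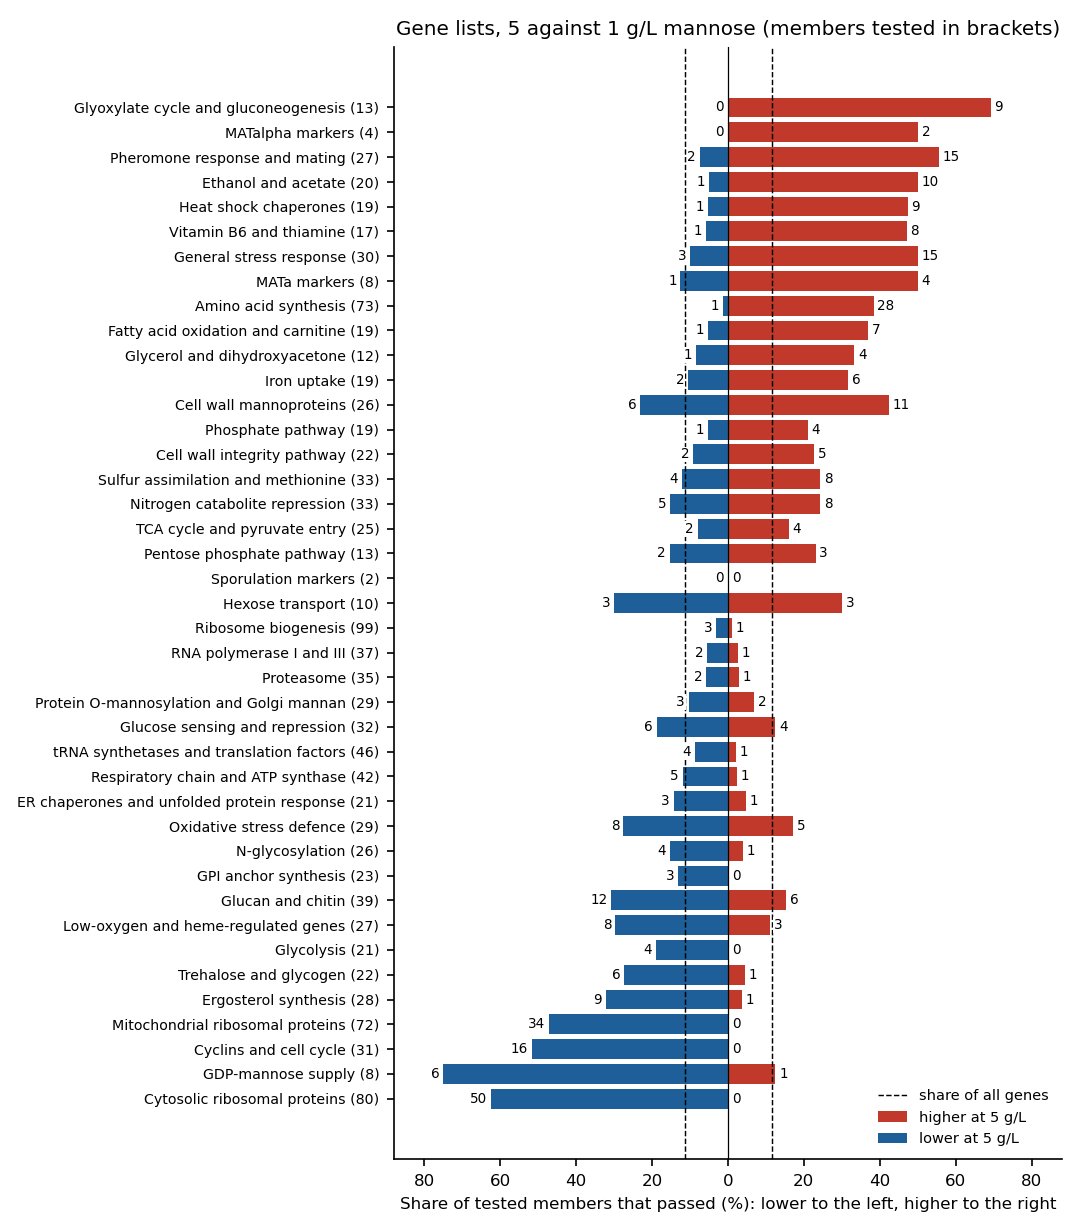
Share of tested members that passed in each of the 41 lists (horizontal axis, percent), higher at 5 g/L to the right and lower to the left, with the count at the end of each bar. Dashed lines give the shares among all genes, 11.7% higher and 11.3% lower. Lists are sorted by the share higher minus the share lower, with the glyoxylate cycle (9 of 13 higher) at the top and GDP-mannose supply (6 of 8 lower, 1 higher) and cytosolic ribosomal proteins (50 of 80 lower) at the bottom.

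The arrays at 3 and 1.5 g/L share no group mean with the comparison of 5 with 1 g/L, although all 15 arrays give the estimate of the spread in both. At 3 against 1.5 g/L, 119 genes passed higher (2.28%) and 95 lower (1.82%), fewer than at 5 against 1 g/L over a narrower range of mannose. Of the 937 probe sets that were higher at 5 than at 1 g/L, 859 were also higher at 3 than at 1.5 g/L (91.7%), 163 of them passing, and 0 passed in the opposite direction (7 at an unadjusted p under 0.05). Of the 725 that were lower, 666 were also lower at 3 than at 1.5 g/L (91.9%), 80 of them passing and 0 in the opposite direction (3 at an unadjusted p under 0.05). Over all probe sets tested the direction was shared by 70.5%. The 3 g/L arrays were all washed in the earlier session and the 1.5 g/L arrays all in the later session, which is the same way round as most arrays at 5 and 1 g/L, so the session moves with this comparison too and its part was not tested.

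The shape of the change differed between genes. The means rose at every step from 1 over 1.5 and 3 to 5 g/L for 652 of the 937 higher probe sets (69.6%), against 29.2% of all probe sets with a higher mean at 5 than at 1 g/L, and fell at every step for 446 of the 725 lower ones (61.5%), against 23.5% of all with a lower mean. The probe sets that passed were picked on their 1 and 5 g/L means, which are also the ends of the steps. Their larger shares can follow from that choice, and how far they do was not tested. HXT1 had means of 72.5 ± 8.62 at 1.5 g/L and 486 ± 130 at 3 g/L (SD, n = 3 each), and lay between its levels at 5 and 1 g/L. SNZ1 had 573 ± 53.7 at 1.5 g/L and 1651 ± 214 at 3 g/L, where the means for 5 and 3 g/L differed by less than the SD at 3 g/L. ICL1 had 34.9 ± 9.92 at 1.5 g/L and 105 ± 21 at 3 g/L. GRE1 had 15.3 ± 3.07 at 1.5 g/L and 28.9 ± 1.91 at 3 g/L. On the linear scale most of the rise lay above 3 g/L in both. On the log2 scale the step from 1.5 to 3 g/L was 1.61 ± 0.25 for ICL1 (adjusted p = 0.00221) and 0.94 ± 0.18 for GRE1 (adjusted p = 0.012). WSC4 had 257 ± 27.1 at 1.5 g/L and 83.3 ± 6.22 at 3 g/L, close to its 1 g/L level at 1.5 g/L and well below it at 3 g/L. CWP1 had 787 ± 40.5 at 1.5 g/L and 212 ± 24.4 at 3 g/L, again with the fall between these concentrations. PSA1 had 1248 ± 74 at 1.5 g/L and 924 ± 26.3 at 3 g/L. RPS22A had 7489 ± 777 at 1.5 g/L and 5587 ± 977 at 3 g/L. The means of both genes were lower at each higher concentration from 1 to 5 g/L.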

How the data were processed

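Expression was measured on 1-colour oligonucleotide arrays of yeast, of which the series gives 15, 3 at each of 5 initial mannose concentrations. The deposited table holds 1 linear intensity per probe set and array, scaled by the authors so that the 2% trimmed mean of each array was near 100, as tested on the values themselves. The labels and headers do not state how intensities were summarised from probes. Fluidics stations and hybridisation times came from the array experiment records, per the file headers. Sessions are not named there and were inferred from those times, and a run is a station within a session.

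Of 9335 probe sets 60 controls and those with a mean under the 25th percentile were left out, which kept 6957. Signals under 1.5, the 10th percentile, were set to it (13754 values) and log2 was taken. limma 3.58.1 in R 4.3.3 (lmFit and eBayes) was fitted on all 15 arrays with 5 group means (10 residual degrees of freedom), which share 1 estimate of the spread, and tested 5 minus 1 g/L, with Benjamini-Hochberg adjustment over all probe sets tested and a threshold of 0.05. The fit was tested on simulated data first. Where every array of a group lay at or below 13.5, the other group's mean over that background is given as a bound.

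Probe sets were named from the platform annotation, with symbols updated through RefSeq genes: 6504 had 1 symbol, 328 several and 2443 none. A gene's brightest probe set stands for it. The genes named are PMI40, the 12 largest rises and the 12 largest falls that passed without overlap, and up to 4 members of each of 41 lists; others are said to be chosen later. The comparison and the lists were chosen with earlier results of these data known. Replicate numbers did not pair the arrays, since the deviations of same-numbered arrays correlated at -0.145, -0.00321 and -0.0683. Alternatives covered the floor, filter, scaling, arrays in the fit, blocks and each array left out. With 3 arrays a group, their number limits the precision. Promoter sequences were not analysed here, and the text on 1 of the named genes is not reported here.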

Additional observations from a re-analysis of the deposited data

How the results depend on the processing

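No probe set that passed in the fit without blocks passed in the opposite direction under any alternative run. With the session as a block 732 probe sets passed instead of 1662, 470 of them higher and 262 lower. With station and session both as blocks, an alternative chosen after seeing the data, 257 passed, 184 higher and 73 lower, and all 257 that passed changed by more than 2-fold; the log2 change of IME1, which had not passed, was -0.31 instead of 0.86. Both blocks rest the comparison on few arrays, since a single 5 g/L array shared the session of the 1 g/L arrays. The station alone gave 1572 and the replicate block 1564. Leaving out 1 array at a time gave 1238 to 1466 passing, 751 to 903 higher and 487 to 648 lower, with 588 to 666 changed by more than 2-fold. The fit on the 6 arrays alone gave 1316, and 18 of the 165 named genes that passed in the main fit did not pass in it. Without the arrays whose wash was recorded as not completed, 1426 passed. Of the probe sets that passed, 56.4% were higher, against 48.7% after quantile normalization and 46.5% after median scaling. Of 165 named genes that passed, 59 passed in every setting where they were tested, 116 with the session as a block, and 60 with station and session as blocks. After quantile normalization PMI40, SEC59, NHP2, EFB1, CPR1, RPL24B and RPS21A did not pass, and after median scaling PMI40 and SEC59 did not; the cause was not tested. Signals near 13.5 limit what can be read of dim transcripts.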
